A study of Mus musculus with 4 samples.

Results

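The Ly6 and Lynx1 family was examined in plasmacytoid dendritic cells (pDCs) sorted from the spleens of Flt3 KO and WT mice. These genes encode small surface proteins of the chromosome 15 Ly6 cluster. The 8 named members were Lynx1, Ly6d, Ly6e, Ly6a, Ly6c1, Ly6c2, Ly6i and Ly6k. They were chosen by family membership, with the genotype differences of these same arrays already known. Their differences and adjusted p-values are therefore a description of where each gene lay in the fit across all genes, and support no further statement. A probe set annotated to exactly 1 gene symbol was present for 5 of the 8, out of 19938 genes measured in that way. Ly6c1 and Ly6c2 are near-identical paralogs and were read jointly, by 2 probe sets annotated to both. Ly6a had no probe set under its name in the annotation used and is not analysed here.

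Each genotype had 2 biological replicates, each on its own GeneChip whole-transcript array, with mature pDCs taken from spleens dispersed with collagenase and DNase and the mice left at steady state. Flt3 is the gene of a receptor kinase whose ligand promotes the development of dendritic cells from bone marrow progenitors. The allele, strain, sex and age of the mice, the sort markers and how many animals made up a replicate are not stated in the labels, so p-values measure the spread between these samples only. Values are log2 of the authors' processed intensity, with no detection call; the median of all genes was 5.89, and a gene below it is called dim here.

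Ly6/uPAR proteins carry a compact, disulfide-rich domain with finger-like loops, and most are held at the cell surface by a glycosylphosphatidylinositol (GPI) anchor. In mice the family supplies widely used markers of blood cells: Ly6C is carried by pDCs, monocytes and subsets of T cells, Ly6D by B-lineage cells and lymphoid progenitors, including progenitors that give rise to pDCs, and Ly6G by neutrophils. Several members, Ly6e and the Ly6c genes among them, are inducible by interferon, the cytokine that pDCs secrete in bulk after virus sensing.

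Lynx1 was the member with the largest difference and was lower in Flt3 KO pDCs; Ly6d was lower by a smaller amount. Ly6e had a small negative difference that did not pass the threshold. The joint Ly6c1 and Ly6c2 signal lay at the same level in both genotypes, with differences smaller than their errors, and the values of Ly6i and Ly6k overlapped between genotypes. The threshold was an adjusted p under 0.05 in limma, with Benjamini-Hochberg adjustment over all 19938 genes. Of the 5 members, 2 passed, both lower, where 2.39% of all genes passed, 1.31% lower and 1.08% higher. The 5 members had a median difference, Flt3 KO minus WT, of −0.099, against −0.0010 for all genes. It was −0.037 for the genes above the median of all genes, where 4 of the 5 members lay. The genotypes were free of overlap in 3 of the 5, and in 47.2% of all genes.

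Lynx1 (Entrez gene 23936) encodes a GPI-anchored protein known from mouse neurons, where it binds nicotinic acetylcholine receptors and dampens their response. Its log2 intensity was 9.06 and 9.05 in the Flt3 KO replicates, against 9.83 and 9.78 in the WT replicates. On the linear scale these were intensities of 532 and 531 in Flt3 KO, against 912 and 879 in WT. Both Flt3 KO arrays lay below both WT arrays, and the gap between genotypes was many times the gap within either. Lynx1 fell by 0.75 on the log2 scale (SE 0.054, limma adjusted p = 0.0037), a 1.69-fold difference. By p-value it ranked 3 among the 261 lower genes and 7 among all genes, and by the size of the difference it ranked 30 among the 261. Its difference ranged from −0.78 to −0.73 when each array was left out in turn. In these fits 1 residual degree of freedom remained. The adjusted p was 0.24 when WT replicate 1 was dropped, 0.15 for WT replicate 2 and 0.090 for Flt3 KO replicate 2, so the call was lost, and it was kept at 0.043 when Flt3 KO replicate 1 was dropped.

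Ly6d (Entrez gene 17068) encodes the surface antigen that marks B-lineage commitment among lymphoid progenitors, and it is also carried by pDCs. Its log2 intensity was 11.77 and 11.69 in the Flt3 KO replicates, against 11.99 and 11.97 in the WT replicates. The genotypes did not overlap, and the Flt3 KO replicates lay further apart from each other than the WT replicates did. Ly6d fell by 0.25 (SE 0.044, limma adjusted p = 0.039), a 1.19-fold difference. It ranked 260 of the 261 lower genes by size, so it was among the smallest differences that passed. The call was lost with any single array left out (adjusted p = 0.14 to 0.35, differences from −0.29 to −0.21), under quantile normalization (adjusted p = 0.071), without the intensity trend (0.22) and when all probe sets were tested together (0.085).

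**Figure D1:**
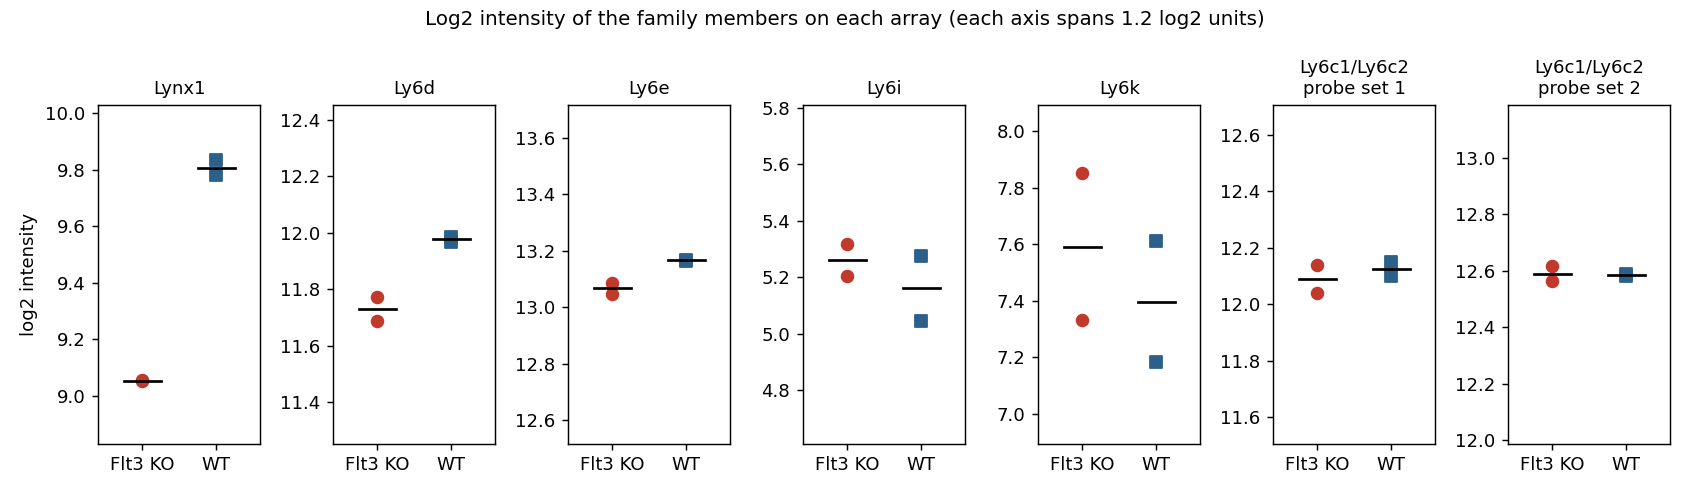
Log2 intensity of each family member on each array, Flt3 KO (circles) left of WT (squares), with the black line at the mean of 2 arrays; every vertical axis spans the same 1.2 log2 units around its own mean. Lynx1 separates clearly at 9.05 in Flt3 KO and 9.81 in WT, Ly6d by less, and both joint Ly6c1/Ly6c2 probe sets lie level.

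Ly6e (Entrez gene 17069) encodes an interferon-induced surface protein that, in mice, acts as a receptor for the placental fusion protein syncytin-A and limits coronavirus entry. Its log2 intensity was 13.05 and 13.09 in the Flt3 KO replicates, against 13.17 and 13.17 in the WT replicates. The Flt3 KO arrays lay below the WT arrays without overlap. The difference was −0.099 (SE 0.034, 95% interval −0.18 to −0.019, limma adjusted p = 0.20). The sign was negative in each of the 13 alternative settings, from −0.14 to −0.072, and Ly6e passed in none of them.

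Ly6c1 and Ly6c2 encode the Ly6C antigens used to gate pDCs and inflammatory monocytes. Because both probe sets are annotated to both genes, their signal cannot be divided between the paralogs, and a change in one gene offset by the other would not be seen. The log2 intensity of the first was 12.04 and 12.14 in the Flt3 KO replicates, against 12.15 and 12.10 in the WT replicates. The second had 12.56 and 12.62 in Flt3 KO, against 12.58 and 12.59 in WT. Genotypes overlapped in both, and in both the Flt3 KO replicates bracketed at least 1 WT value. Fitted with all 30177 probe sets together, of which 0.964% passed, the differences were −0.034 (SE 0.049, 95% interval −0.15 to 0.085, limma adjusted p = 0.81) and 0.0040 (SE 0.040, 95% interval −0.092 to 0.10, adjusted p = 0.98). The sign of the first turned without Flt3 KO replicate 1 (0.015), and that of the second without Flt3 KO replicate 2 (−0.024) and with the arrays centred on their medians (−0.034).

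Markers of monocytes, which also carry Ly6C, and of macrophages were read as a joint list and had more signal in Flt3 KO arrays. The list does not separate the cell types, so its sum is not a measure of cells with Ly6C. Of 15 measured, 5 rose, 0 fell and 10 did not pass (median difference 0.44), where 1.08% of all genes rose and 1.31% fell. Differences were positive in 12 of the markers and negative in 3. At an unadjusted limma p under 0.05, 9 were higher and 1 lower, against 1385 and 2020 of all 19938 genes. The summed intensity of the 15 was 4616 and 6099 in the Flt3 KO replicates, against 3817 and 3517 in the WT replicates. No marker was at 0, since array values have no true zero; the lowest was Chil3, with a mean of 3.31 over the 4 arrays. The Flt3 KO replicate with the higher marker sum also had the higher value of both Ly6c probe sets and of Ly6e, and the lower value of Ly6d. The WT replicate with the higher sum had the higher value of the first Ly6c probe set and of Ly6d. It had the lower value of the second probe set and of Ly6e. The part of these markers in the results was not tested. In bulk samples such as these, fewer cells of a type and less RNA per cell cannot be told apart.

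Ly6k (Entrez gene 76486) encodes a family protein known from the mouse testis, where it is needed for sperm function. Its log2 intensity was 7.85 and 7.33 in the Flt3 KO replicates, against 7.61 and 7.18 in the WT replicates. Replicate 1 was the higher one in both genotypes, and the spread within each exceeded the difference of means. That difference was 0.19 (SE 0.19, 95% interval −0.25 to 0.64, limma adjusted p = 0.67), and its sign turned without WT replicate 2 (−0.021) or Flt3 KO replicate 1 (−0.066). It was 0.41 without WT replicate 1 and 0.46 without Flt3 KO replicate 2.

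Ly6i (Entrez gene 57248), a close relative of Ly6c1 and Ly6c2 in the same cluster, was at a log2 intensity of 5.20 and 5.32 in the Flt3 KO replicates, against 5.28 and 5.05 in the WT replicates. All of these lay below 5.89, so the member was dim in both genotypes, and probes of such closely related genes can cross-read, which leaves its value uncertain. The difference was 0.099 (SE 0.11, 95% interval −0.16 to 0.36, limma adjusted p = 0.72). Dropping WT replicate 2 turned it to −0.016, and dropping WT replicate 1 gave 0.22.

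**Figure D2:**
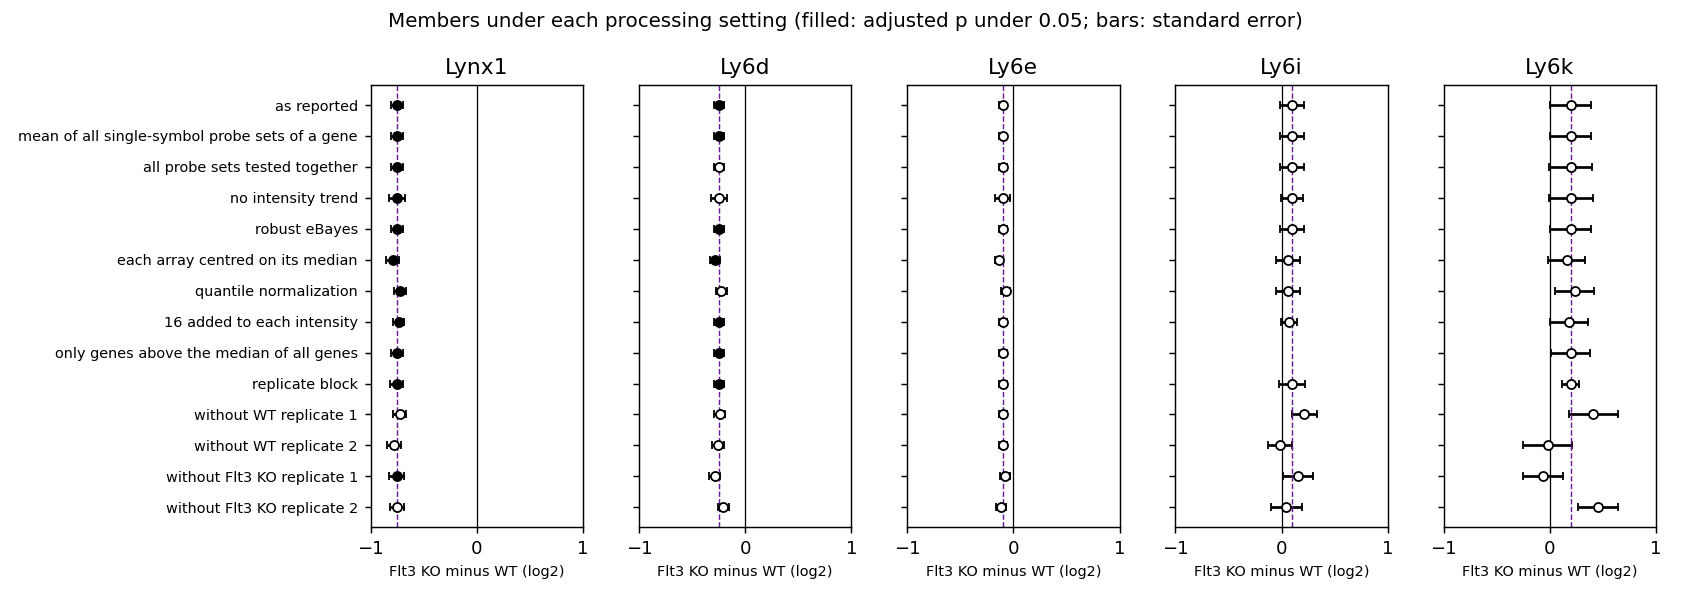
Difference (Flt3 KO minus WT, log2, horizontal axis) of the 5 members under each processing setting (rows), with bars of 1 SE, filled points for an adjusted p under 0.05 and the dashed line at the reported value. Lynx1 and Ly6d keep their sign in all 13 alternatives and lose the call in 3 and 7 of them, whereas Ly6k and Ly6i cross 0 when single arrays are left out.

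Other Ly6/uPAR genes of the chromosome 15 cluster were mostly dim. Of 13 measured genes on the list of these, which leaves out Ly6g6g, 11 had a mean below 5.89, and none passed in limma. At an unadjusted limma p under 0.05 there were 4 higher and 1 lower, against 1385 higher and 2020 lower of all 19938 genes. The 13 genes had a median difference of 0.13, against −0.0010 for all genes, a background not matched to their level. The 2 above 5.89 were Slurp1 and Slurp2, which encode secreted relatives known to act on nicotinic receptors in skin. Slurp2, the immediate neighbour of Lynx1, was at a log2 intensity of 6.65 and 6.60 in Flt3 KO, against 6.88 and 6.82 in WT. Its genotypes did not overlap, and its difference was −0.23 (SE 0.078, adjusted p = 0.21). Slurp1 had a difference of 0.050 (adjusted p = 0.86), which was −0.047 without Flt3 KO replicate 2. The lowest p-values among the others were those of Ly6h (0.27, adjusted p = 0.22) and Ly6m (0.25, adjusted p = 0.25), both below 5.89 in every array. Ly6g, the neutrophil antigen, had 3.92 and 4.06 in Flt3 KO, against 3.93 and 4.05 in WT. A further probe set, annotated to both Gml and Gml2, had 3.71 and 4.37 in Flt3 KO, against 4.12 and 4.39 in WT, a difference of −0.21 (adjusted p = 0.72 with all probe sets tested together).

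In chromosomal order the called members stood next to each other. The stretch from 5 genes before the first family gene to 5 after the last held 31 measured protein-coding genes, 5 of them members. At an unadjusted limma p under 0.05 there were 10 of the 26 others, in both directions, against 3405 of all 19938 genes. Differences of the 26 ran from −0.49 to 0.29 with a median of 0.056, and 1 passed, also lower. That gene, Them6, named after its value was seen, lies on the same side of the cluster, separated from Lynx1 among the measured genes by Slurp1, Lypd2 and Slurp2. Its log2 intensity was 7.78 and 7.93 in Flt3 KO, against 8.37 and 8.32 in WT. Them6 fell by 0.49 (SE 0.075, limma adjusted p = 0.024). The call was lost with any single array left out (adjusted p = 0.12 to 0.34), without the intensity trend (0.086) and with all probe sets tested together (0.056). Immediately beyond Ly6d, Ly6g6g, a further Ly6 gene of the cluster that was also named after its value was seen, lay below 5.89 in every array and had a difference of 0.086 (adjusted p = 0.71).

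**Figure D3:**
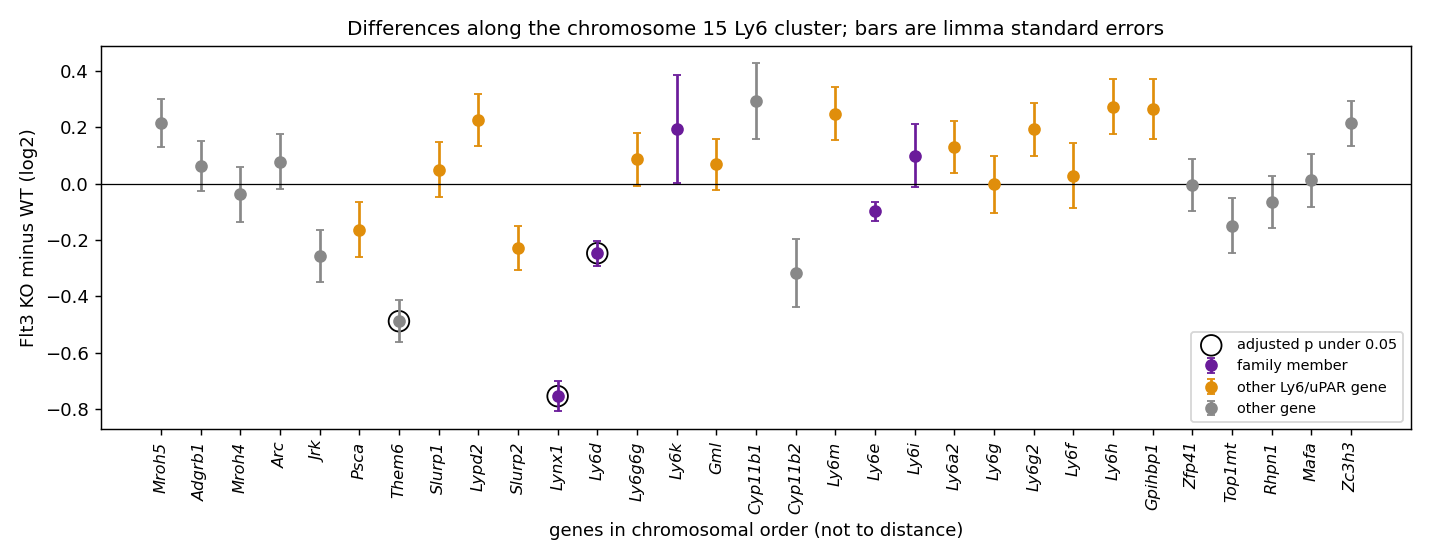
Difference (Flt3 KO minus WT, log2) of the 31 genes in and around the chromosome 15 Ly6 cluster, in chromosomal order from the RefSeq table and not to distance; points are members, other Ly6/uPAR genes and other genes, bars are 1 limma SE, and rings mark an adjusted p under 0.05. Lynx1, Ly6d and Them6 are the ringed genes, and most others lie between −0.3 and 0.3.

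Among 25 measured Ly6/uPAR genes elsewhere in the genome, 1 fell and 24 did not pass, with a median difference of 0.043; 22 had a mean below 5.89. The gene that fell was Plaur, which encodes the urokinase receptor, a GPI-anchored protein with several Ly6-type domains that focuses plasminogen activation at the cell surface. Its log2 intensity was 12.04 and 12.01 in the Flt3 KO replicates, against 12.43 and 12.29 in the WT replicates. The genotypes did not overlap, and the WT replicates were the more widely spaced. Plaur fell by 0.34 (SE 0.052, limma adjusted p = 0.023), a 1.26-fold difference. The call was lost with any single array left out (adjusted p = 0.15 to 0.28), without the intensity trend (0.15) and with all probe sets tested together (0.057). The other genes above 5.89 were Ly6g6e (difference 0.13, adjusted p = 0.50) and Spaca4, a sperm membrane protein gene (0.060, adjusted p = 0.77). Cd59a and Cd59b, which encode inhibitors of complement lysis, were below 5.89 in every array. Their differences were −0.46 (limma adjusted p = 0.13) and −0.18 (adjusted p = 0.45), and the values of Cd59a did not overlap between genotypes. At an unadjusted limma p under 0.05, 0 of the 25 genes were higher and 3 lower, against 1385 and 2020 of all 19938 genes.

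**Figure D4:**
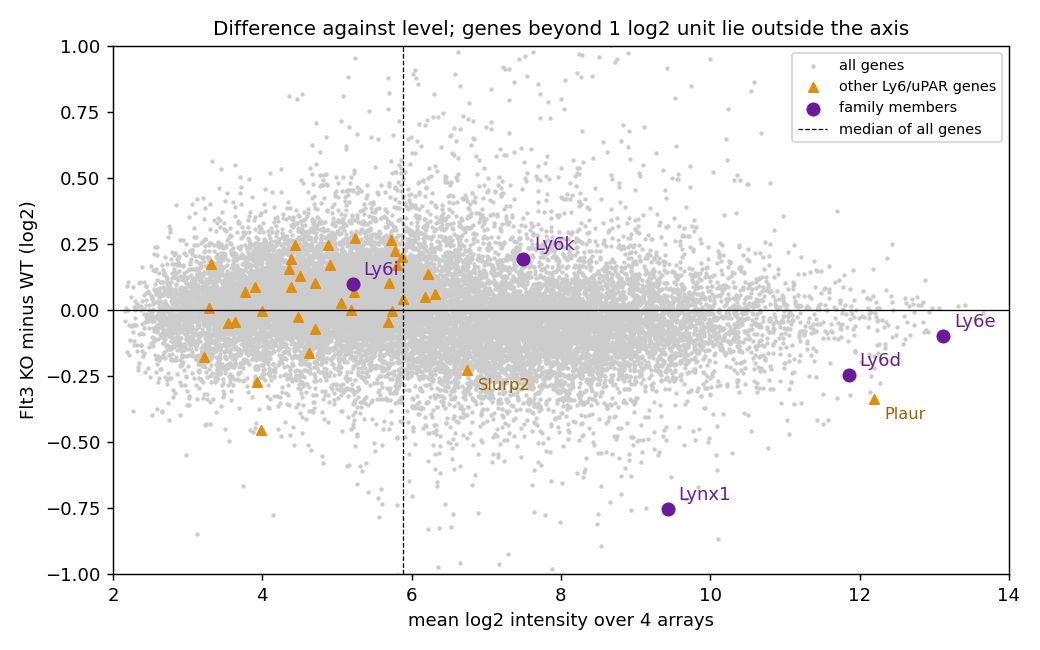
Difference (Flt3 KO minus WT, log2) against mean log2 intensity over the 4 arrays for all genes (grey), the listed other Ly6/uPAR genes (triangles) and the 5 members (large points), with the median of all genes at 5.89 dashed. Most of the family lies left of the dashed line, while Lynx1, Ly6d, Ly6e and Plaur are bright genes with differences below 0.

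GPI anchoring, on which most of the family depends, was examined through the genes that build, attach and remodel the anchor. None of 29 measured passed in limma. At an unadjusted limma p under 0.05 there was also none, against 3405 of all 19938 genes. The 29 differences ran from −0.18 to 0.18 with a median of −0.058. The lowest p-values were those of the mannosyltransferase gene Pigv (−0.16, adjusted p = 0.31), Dpm2, a regulatory subunit gene of dolichol-phosphate mannose synthase (−0.13, adjusted p = 0.34), and Pgap2, which acts in lipid remodelling of the anchor (−0.17, adjusted p = 0.35). Other GPI-anchored surface genes of immune cells went both ways, with positive differences in 15 and negative ones in 5. Of these 20 measured, 2 rose, 1 fell and 17 did not pass (median 0.12), where 2.39% of all genes passed. At an unadjusted limma p under 0.05, 5 were higher and 2 lower, against 1385 and 2020 of all 19938 genes. Cd14, the lipopolysaccharide co-receptor gene and a monocyte marker, rose by 1.08 (SE 0.16, adjusted p = 0.020), and Cd48, which encodes a ligand of SLAM family receptors, rose by 0.36 (SE 0.055, adjusted p = 0.023). Cd52, which encodes a short glycopeptide of lymphocytes, fell by 0.39 (SE 0.067, adjusted p = 0.036). These calls were lost without the intensity trend (adjusted p = 0.071, 0.13 and 0.12 for Cd14, Cd48 and Cd52), and with any single array left out except that of Cd14 without Flt3 KO replicate 1; those of Cd48 and Cd52 were also lost with all probe sets tested together (0.057 and 0.077), and that of Cd52 with the replicate block (0.056).

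The genes whose pattern over the 4 arrays was nearest to each called member were found by the root mean square difference of gene-centred log2 values. For Lynx1 they were the pDC-expressed gene Rpgrip1 (0.020, with 7.39 and 7.39 in Flt3 KO, against 8.22 and 8.12 in WT) and the ETS transcription factor gene Etv5 (0.026). Etv5 had 5.46 and 5.43 in Flt3 KO, both below 5.89, against 6.24 and 6.12 in WT. With 1 array left out the differences ran from −0.83 to −0.73 for Rpgrip1 and from −0.80 to −0.68 for Etv5. The match was computed on the brightest probe set of each gene. For Etv5 that probe set had a difference of −0.74, against −0.59 for the mean of all its single-symbol probe sets. For Ly6d they were Ttll9 (0.0046), below 5.89 in every array, and Xbp1, a transcription factor gene of secretory cells (0.0051). Xbp1 had 11.23 and 11.16 in Flt3 KO, against 11.46 and 11.43 in WT, a difference of −0.25 (adjusted p = 0.042). That call was lost with any single array left out (adjusted p = 0.16 to 0.36), without the intensity trend (0.21), with all probe sets tested together (0.088) and with the replicate block (0.053). Such a match over 4 arrays is a description only.

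Over the whole series, Flt3 itself fell by 2.21 (SE 0.066, limma adjusted p = 7.4e-05), with values of 8.46 and 8.61 in Flt3 KO, against 10.71 and 10.77 in WT; its adjusted p was 0.063 without WT replicate 1 and 0.074 without WT replicate 2. In all, 215 genes were higher and 261 lower. Centring the arrays on their medians gave 217 higher and 452 lower, and robust eBayes 262 and 336. The balance turned under quantile normalization (293 higher and 259 lower) and with the replicate block (194 and 181). It also turned with all probe sets tested together (116 and 103) and without the intensity trend (61 and 47). In the fit used here, at an unadjusted limma p under 0.05, 1385 of all 19938 genes were higher and 2020 lower. The pDC lectin gene Siglech was bright in both genotypes (12.51 and 12.53 in Flt3 KO, against 12.65 and 12.64 in WT). Of 15 pDC identity genes measured, 8 fell and 1 rose, and all lay above 5.89. At an unadjusted limma p under 0.05, 11 of them were lower and 1 higher. No B cell marker of 9 passed in limma, with 1 up and 1 down below an unadjusted p of 0.05, and their summed intensity was 890 and 839 in Flt3 KO, against 904 and 919 in WT. Neutrophil markers summed to 530.0 and 468 in Flt3 KO, against 489 and 541 in WT, and none of 10 passed (2 up and 1 down below an unadjusted p of 0.05). The remaining lists follow, with counts below an unadjusted limma p of 0.05 in brackets. Of 8 plasma cell markers, 1 rose and 2 fell (2 up and 2 down). Of 9 T cell markers, 1 fell (2 up and 3 down), and of 8 NK cell markers, 1 rose (1 up and 0 down). The 1 conventional dendritic cell marker of 12 that fell was Flt3 (4 up and 2 down). None of 9 progenitor markers passed (1 up and 1 down).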

How the data were processed

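Total RNA of the 4 samples was amplified and biotin-labelled for GeneChip whole-transcript arrays, per the labels' protocols. Intensity values of 30177 probe sets, as deposited, are on a linear scale and were processed by the authors; how background, summarisation and scaling were done is not stated in the labels. Median intensity was 55.1 to 57.2 per array. Platform annotation gave 1 gene symbol to 21789 probe sets, several to 1621 and none to 6767. The brightest single-symbol probe set stood for each of 19938 genes. Intensities were converted to log2 with no added constant and compared in R 4.3.3 by limma 3.58.1 (lmFit, eBayes with an intensity trend, no covariate), checked on simulated data. The number of arrays limits precision: at 2 arrays a genotype, 0.3333 is the lowest p that exact two-sided permutation allows for 1 gene, and limma's calls borrow variance across genes.

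The members and gene lists were chosen with earlier results of these data known. Named were all members, Flt3 and the 2 nearest patterns of each called member. Of each related list, the genes past the threshold were named, or otherwise the 3 with the lowest p. Ly6/uPAR genes above the median of all genes were also named. Cd59a, Cd59b, Ly6g, Siglech, Them6 and Ly6g6g were among the genes named outside these rules. Gene order came from the RefSeq table of GRCm38.p6; no build is named for the arrays, so no coordinates are given. The 13 alternatives changed probe set choice, features tested, variance model, scaling, added constant, dim-gene filter and replicates.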

Additional observations from a re-analysis of the deposited data

How the results depend on the processing

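Lynx1 and Ly6d kept their sign in all 13 alternatives and Ly6e in all 13. With 1 array left out the ranges were −0.78 to −0.73 for Lynx1, −0.29 to −0.21 for Ly6d, −0.016 to 0.22 for Ly6i, −0.066 to 0.46 for Ly6k, −0.047 to 0.15 for Slurp1, and −0.083 to 0.015 and −0.024 to 0.032 for the joint Ly6c1 and Ly6c2 probe sets, the second also at −0.034 after median centring. Ly6d lost its call at −0.25 with all probe sets tested together and without the intensity trend, and at −0.22 under quantile normalization, leaving 1 member past the threshold in each; 0 to 1 members passed with an array left out. Over all genes 476 passed, against 219 with all probe sets tested, 108 without the trend, 724 of 9969 when only genes above the median were tested and 0 to 54 with an array left out (0 without WT replicate 1 and 0 without WT replicate 2 in limma, with 2068 and 2650 at an unadjusted p under 0.05). The leave-one-out fits have 1 residual degree of freedom and assume that the lone array varies like the other genotype; for the other settings the cause was not tested. Ly6i lay below the dim-gene filter and has no value there.

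Genotypes share replicate numbers. Deviations of same-numbered arrays from their group means correlated across genes at −0.017 over 2 pairs. A single value over so few pairs cannot decide whether the numbers pair the samples. With a replicate block 375 genes passed. Lynx1 stayed at −0.75 (limma adjusted p = 0.0026) and Ly6d at −0.25 (adjusted p = 0.047). Ly6k stayed at 0.19 with an SE of 0.082 (limma adjusted p = 0.31), against an SE of 0.19 without the block. No detection call accompanies the values, so signal over background is not known for the dim genes, which include most of the wider family.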
